A study of Mus musculus with 16 samples.

Results

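The interleukin-1 receptor cluster is a run of 6 receptor genes on mouse chromosome 1, all transcribed from the same strand, and the counts described here are DNA break ends that fell over these genes and between them. The members are Il1rl1, Il1r1, Il1r2, Il1rl2, Il18r1 and Il18rap, 6 of 32093 protein-coding and long noncoding genes of the GENCODE M21 annotation on the main chromosomes. Il1rl1 was selected on its fitted difference in break ends between the shHMGB1 and shCTRL lines in an earlier pass over the same counts, and the other 5 were chosen by their place beside it. Every difference between the 2 lines is therefore given as a description with no test, and tests were made only of irradiation, of the difference between lines in the response to irradiation, and of exons against introns.

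Break ends were mapped by BLISS, an assay in which free DNA ends are blunted in fixed cells, tagged with an adapter, copied into RNA and sequenced, so that each end has a genomic position. The cells were AB22, a mouse malignant mesothelioma line, that carried a doxycycline-inducible hairpin from the lentiviral vector pTRIPZ, either a control hairpin (shCTRL) or one against Hmgb1 (shHMGB1), the gene of a chromatin protein that bends DNA. Both lines were infected at a multiplicity of 20, selected in 4 µg/mL puromycin, kept at 5% oxygen and exposed to 1 µM doxycycline for 7 to 10 days. Cells synchronised in G1 were either left at 0 Gy or given gamma rays from a caesium source at a dose of 3, 5 or 10 Gy, with 2 libraries for each of the 8 combinations, 16 in all. No line without a hairpin or without doxycycline enters these comparisons, and the labels do not say whether the hairpin lines were clones or whether the 2 replicates were separate cultures, so p-values measure only the spread between these libraries. The 16 libraries held 131430 to 1010888 ends on the main chromosomes, the fewest in shCTRL at 3 Gy, replicate 2. Depth differed between the lines, with 131430 to 927413 ends in shCTRL and 691644 to 1010888 in shHMGB1. Most shCTRL libraries were shallower than every shHMGB1 library. Values are given as CPM, ends per 1000000 ends on the main chromosomes of the same library. CPM per kb is used where genes of different length are compared. A CPM is a share of a library's ends, so a rise or fall in breaks common to the whole genome does not show in it. The fits also scale each library, so the same limit holds for them. A count of ends does not measure a transcript, so the ends over Hmgb1 do not check the knockdown, and a change in the number of cells with a break cannot be told apart from a change in breaks per cell. Of genes listed as markers of the labelled cell type, 3 of 9 mesothelial genes and 5 of 7 fibroblast genes had enough ends to be tested and none differed with irradiation by edgeR's quasi-likelihood test. The 9 mesothelial genes ranged from 2 ends in all libraries together in Krt18, a keratin, to 133 in Wt1 and 244 in Msln, which encodes mesothelin.

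Receptors of the interleukin-1 family carry immunoglobulin-like domains outside the cell and, in the signalling members, a TIR domain inside it, and they pair with an accessory chain to activate NF-κB and MAP kinases through MyD88. Il1rl1 encodes ST2, the receptor of the alarmin IL-33. It is made in a membrane form from the long transcript and as a soluble decoy from a shorter transcript that ends early, and it has a distal and a proximal promoter. In mast cells and some lymphocytes the distal promoter is the better known one, and in fibroblasts the proximal one.

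The cluster spans 477627 bp (mm10, chromosome 1, 40074079 to 40551705), of which 183850 bp lie between the genes. In order along the chromosome the genes are Il1r2 (40074079 to 40125231), Il1r1 (40225080 to 40317257), Il1rl2 (40324610 to 40367562), Il1rl1 (40429570 to 40465415), Il18r1 (40465552 to 40500854) and Il18rap (40515362 to 40551705). Only 136 bp separate Il1rl1 from Il18r1, and that gap held 1 end in all 16 libraries. The whole interval held 3445 ends, and Il1rl1 alone 980 of them. An antisense transcript, Gm16894, overlaps the interval with 24 ends, and because the deposited positions carry no strand its ends cannot be told apart from those of its neighbour.

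The 250 bases before each annotated RefSeq start of Il1rl1 (RefSeq, GRCm38.p6, plus strand) are shown because these 2 starts separate a stretch of the gene with few ends from the stretch with most of them. Capitals mark matches on either strand to GATAA, the core of a GATA factor site.
Il1rl1 distal promoter, chr1:40429320-40429569: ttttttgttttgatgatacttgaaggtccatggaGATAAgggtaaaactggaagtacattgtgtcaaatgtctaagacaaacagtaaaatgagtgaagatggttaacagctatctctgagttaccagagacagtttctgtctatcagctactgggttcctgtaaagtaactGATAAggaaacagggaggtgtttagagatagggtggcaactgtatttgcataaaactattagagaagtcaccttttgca
Il1rl1 proximal promoter, chr1:40439379-40439628: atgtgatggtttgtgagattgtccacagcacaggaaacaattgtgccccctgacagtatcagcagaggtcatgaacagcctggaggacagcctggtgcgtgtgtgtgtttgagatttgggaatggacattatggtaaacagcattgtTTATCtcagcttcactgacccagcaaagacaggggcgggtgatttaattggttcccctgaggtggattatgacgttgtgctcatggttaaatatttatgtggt
The distal window holds 2 matches to GATAA and the proximal window 1, against at least 1 match in 22.6% of 32851 RefSeq promoter windows of the same length. Neither holds TATAAA (found in 12.4% of the windows) or TGANTCA, the AP-1 site (6.75%), on either strand. A match is only a string of letters here, and a missing match says nothing about a factor. Few ends fell at these starts: the 300 bases around the distal start held 2 ends, both in 1 library, and those around the proximal start 3 ends in 2 libraries. All 6 members had a RefSeq promoter window, and those of Il1r2, Il1r1 and Il18rap held no end in any library.

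Il1rl1 was the densest member. Over all 16 libraries it carried 2.60 ± 1.04 CPM per kb (SD, n = 16), 6.82 times the median of 0.382 over the 12848 genes with enough ends to be tested, and higher than 96.5% of them. Il18rap, the accessory chain of the IL-18 receptor, followed at 1.17 CPM per kb (89.0% of genes lower) and Il1r1, the signalling receptor of IL-1, at 0.860 (82.8%). Il1rl2, the IL-36 receptor, carried 0.411 CPM per kb, Il18r1, the ligand-binding chain of the IL-18 receptor, 0.346, and Il1r2, the decoy receptor of IL-1, 0.253. The last 3 lie near or below the middle of all genes, at the 53.9th, 45.2nd and 27.6th percentiles, and rest on 207, 140 and 132 ends. Il18rap and Il1r1 differ by less than the SD of Il18rap between libraries (0.457). All members were counted in the same libraries, so a spread between libraries does not settle their order. The order of the members within libraries was not tested.

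**Figure D1:**
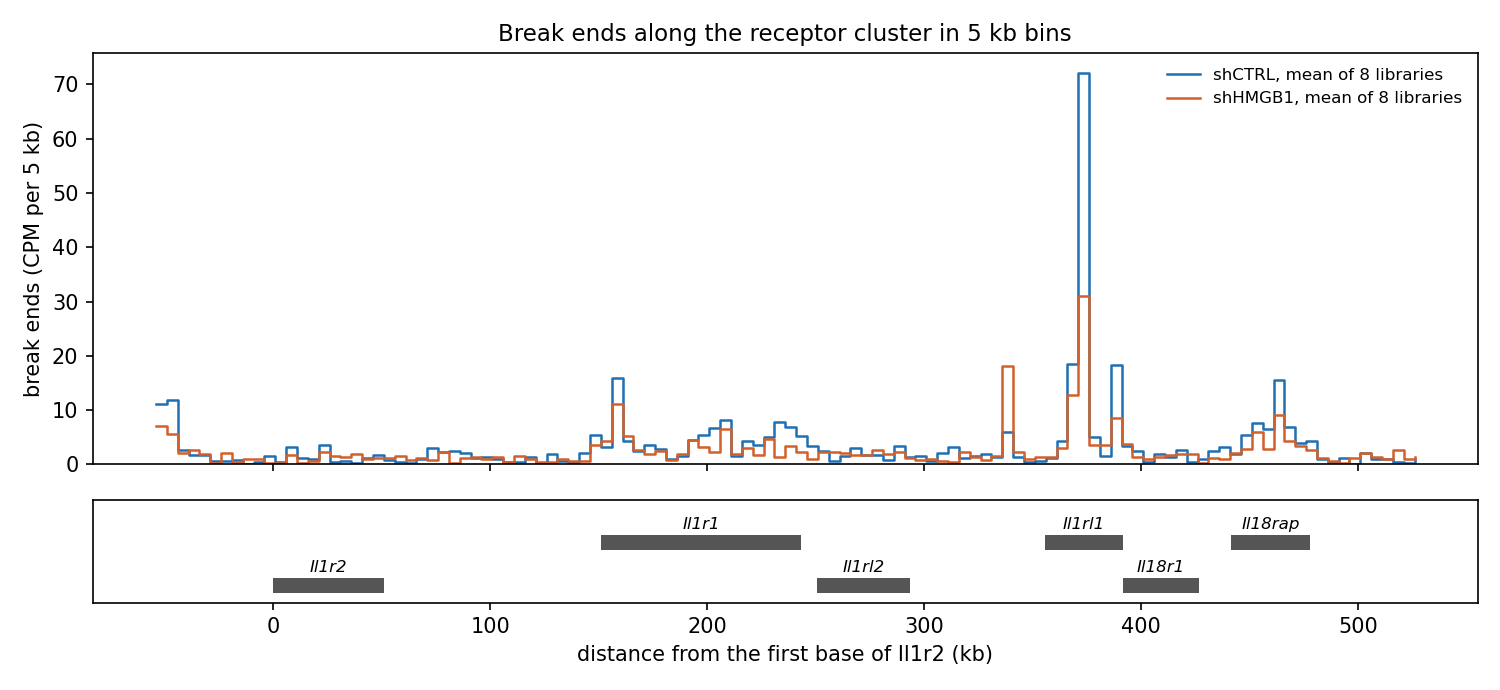
Mean break ends in 5 kb bins (CPM, y axis) against distance from the first base of Il1r2 (kb, x axis) for the 8 shCTRL and the 8 shHMGB1 libraries, with the 6 genes drawn to scale below. The highest bins lie inside Il1rl1, where the shCTRL line is above the shHMGB1 line, and 1 bin before Il1rl1 stands out the other way, higher in shHMGB1.

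Il1rl1 held a lower share of a library's ends in shHMGB1 than in shCTRL cells at every dose. This is the difference it was picked for. In raw counts, the libraries at 0 Gy held 119 ends in shCTRL and 126 in shHMGB1, the latter from deeper libraries. Replicates 1 and 2 of shCTRL held 165 and 99.5 CPM without irradiation, 114 and 137 after 3 Gy, 144 and 116 after 5 Gy, and 101 and 94.6 after 10 Gy. Those of shHMGB1 held 96.9 and 66.9 CPM without irradiation, 96.1 and 27.97 after 3 Gy, 57.6 and 45.8 after 5 Gy, and 69.2 and 60.5 after 10 Gy. Each shHMGB1 library was below both shCTRL libraries of its dose, in 16 of 16 such pairs, but the lines overlap across doses, since the highest shHMGB1 libraries exceed the lowest shCTRL library. The 3 shallowest values rest on few ends, 18 in shCTRL at 3 Gy, replicate 2, 21 in shHMGB1 at 3 Gy, replicate 2, and 36 in shHMGB1 at 5 Gy, replicate 2. The mean over 8 libraries was 121 ± 24.8 CPM in shCTRL against 65.1 ± 23.4 in shHMGB1 (SD), and the log2 difference fitted by edgeR was -0.86 ± 0.17 (SE), below that of all but 1.66% of tested genes. On log2 CPM the 4 doses, from 0 to 10 Gy, gave -0.67, -1.27, -1.33 and -0.59. The difference was -0.72 among replicates numbered 1 and -1.21 among those numbered 2. None of the 6 members had all 8 libraries of shHMGB1 below all 8 of shCTRL, as 0.0467% of tested genes did. Of all tested genes, 0.218% passed an adjusted p of 0.05 between lines and 0.163% passed with a lower value in shHMGB1.

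**Figure D2:**
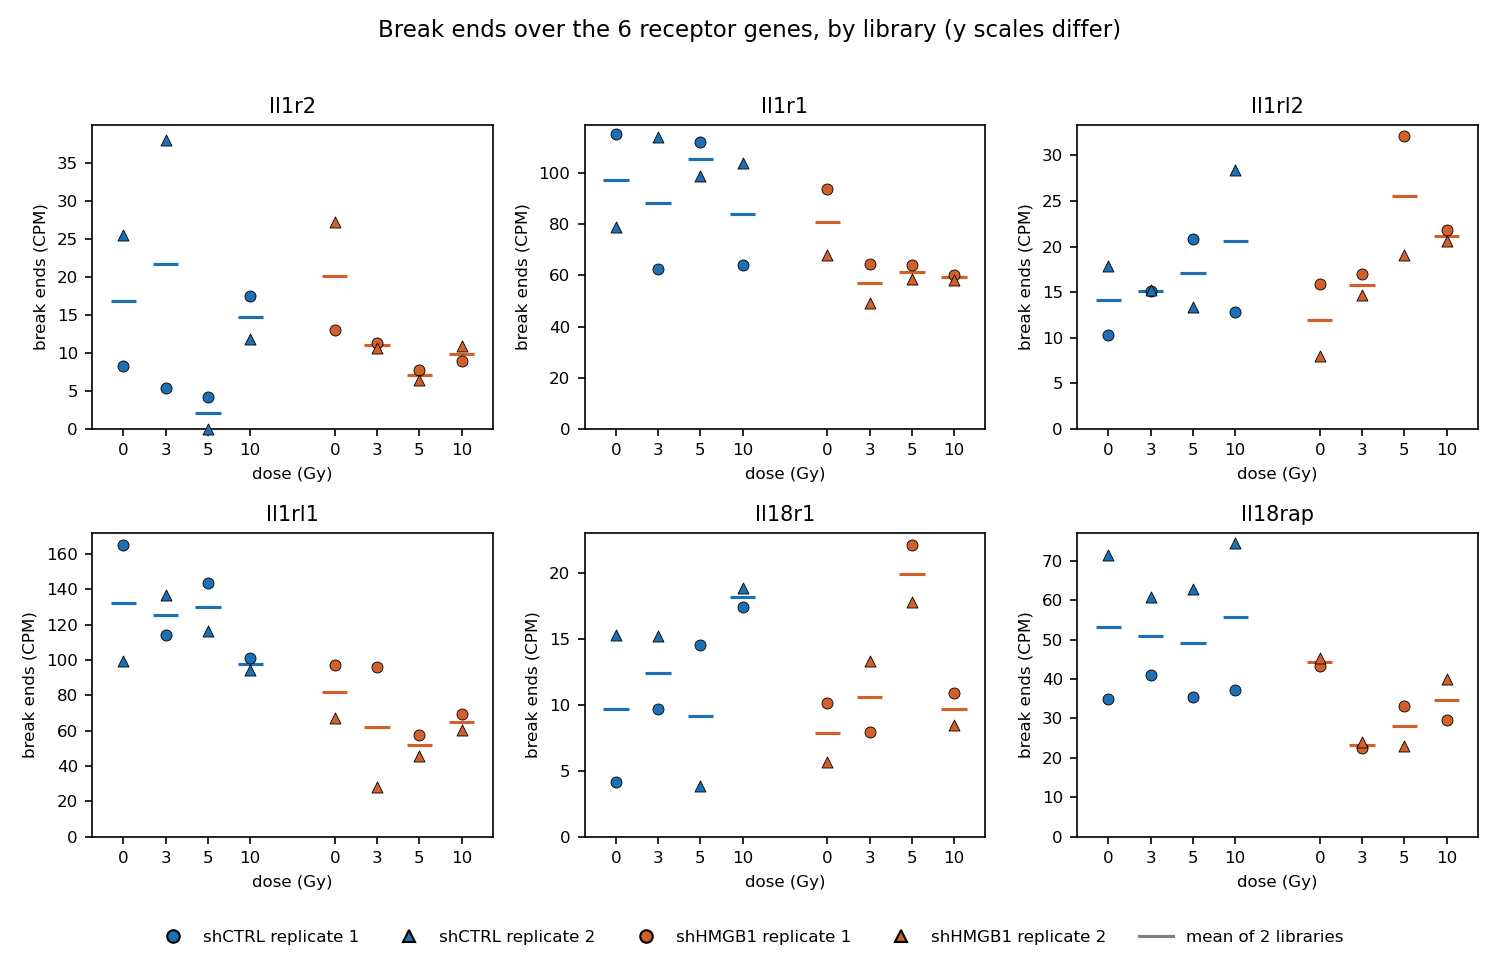
Break ends over each receptor gene (CPM, y axes that differ in scale) in every library by dose (x axis, Gy), with shCTRL at the left and shHMGB1 at the right of each panel, circles for replicate 1, triangles for replicate 2 and a bar at the mean of the 2. In Il1rl1 all 4 pairs of shHMGB1 libraries lie below the shCTRL pair of the same dose, and in Il1r2, Il1rl2 and Il18r1 the 2 lines overlap widely.

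Beside Il1rl1, the 2 other members with many ends were also lower on average in shHMGB1. Il1r1 held a lowest, median and highest value of 62.5, 102 and 115 CPM in shCTRL and 49.3, 62.3 and 94.0 CPM in shHMGB1. The lines overlap, with shHMGB1 lower in 14 of 16 same-dose pairs and a fitted log2 difference of -0.45 ± 0.16 (SE). Il18rap held 35.0, 50.9 and 74.5 CPM (lowest, median, highest) in shCTRL and 22.6, 31.4 and 45.4 in shHMGB1, with shHMGB1 lower in 13 of 16 pairs and a fitted log2 difference of -0.62 ± 0.20 (SE). In the shCTRL line its 2 replicate numbers stand apart at every dose: replicate 1 held 35.0, 41.0, 35.4 and 37.3 CPM at 0, 3, 5 and 10 Gy, and replicate 2 held 71.4, 60.9, 62.9 and 74.5. In shHMGB1 they did not separate (32.2 ± 8.65 and 33.1 ± 11.3 CPM, SD, n = 4 each). The log2 difference between lines in Il18rap was accordingly -0.25 among replicates numbered 1 and -1.10 among those numbered 2, and it was -0.04 when only ends in exons were counted. The separation of replicate numbers in shCTRL was noticed after the values were seen. The share of tested genes that separate in this way is not given here. Whether the replicate number marks a culture, a day or a run is not given in the labels, and its part in the difference was not tested.

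The 3 members with few ends showed no common direction between lines. Il1rl2 held 16.7 ± 5.69 CPM in shCTRL and 18.6 ± 6.92 in shHMGB1, a fitted log2 difference of 0.16 ± 0.30 (SE). Il18r1 held 12.4 ± 5.84 and 12.04 ± 5.51 CPM, a fitted difference of 0.03 ± 0.37, although it begins 136 bp past the end of Il1rl1. Il1r2 held 13.8 ± 12.7 and 12.01 ± 6.50 CPM (SD over 8 libraries). Its fitted difference of 0.39 ± 0.42 has the opposite sign to the difference of these means, and it became 1.31 without shCTRL at 5 Gy, replicate 1. For these 3 genes the SE is as large as or larger than the difference, so at this depth no difference was detectable in either direction.

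The sequence between the genes held 61.2 ± 15.3 CPM in shCTRL and 58.9 ± 9.09 in shHMGB1, but its gaps differed. The mean of shHMGB1 was 0.802, 0.392 and 0.354 times that of shCTRL between Il1r2 and Il1r1, Il1r1 and Il1rl2, and Il18r1 and Il18rap. It was 1.43 times that of shCTRL between Il1rl2 and Il1rl1. The ratios of 0.392 and 0.354 rest on only 29 and 44 ends, with no end in 5 and 3 of 16 libraries. Of the 20 shCTRL ends between Il1r1 and Il1rl2, 11 came from 3 Gy, replicate 1. Without the densest 50 bases of the gap between Il1rl2 and Il1rl1, the sequence between genes held 55.5 ± 15.9 and 42.7 ± 7.11 CPM. It was then lower in shHMGB1 in 12 of 16 same-dose pairs. The whole interval held 372 ± 48.6 CPM in shCTRL and 264 ± 46.4 in shHMGB1, and shHMGB1 was lower in 16 of 16 same-dose pairs. This total includes Il1rl1, which was picked for this difference and held 121 and 65.1 CPM of it, itself lower in 16 of 16 pairs. The total is therefore not separate support for a lower level in the cluster. The nearest protein-coding genes outside the interval give the surroundings. Map4k4, a kinase gene before Il1r2, held 205 ± 19.8 and 143 ± 26.0 CPM, a fitted log2 difference of -0.47 ± 0.14 (SE), which is near that of Il1r1. Slc9a4 and Slc9a2, sodium-proton exchanger genes past Il18rap, had fitted differences of 0.28 ± 0.17 and 0.62 ± 0.32, and Gm3646 held no end. Map4k4 before the cluster and Il1r1 within it were thus both lower in shHMGB1. Il1r2, which lies between them, had a fitted difference of 0.39 ± 0.42, so the member at that edge showed no lower level. The genes past the other end had a positive sign. Whether the levels of neighbouring genes are linked was not tested.

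Within the gap between Il1rl2 and Il1rl1, 1 place went the other way. A stretch of 50 bases (40410607 to 40410656), 18963 bases before the first base of Il1rl1 and in no annotated member, held 140 of the 323 ends of this gap. The shCTRL replicates held 8.25 and 5.10 CPM there without irradiation, 6.47 and 0 after 3 Gy, 6.24 and 5.71 after 5 Gy, and 10.5 and 3.55 after 10 Gy. The shHMGB1 replicates held 21.7 and 22.7 CPM without irradiation, 11.3 and 11.99 after 3 Gy, 14.4 and 12.7 after 5 Gy, and 23.7 and 10.9 after 10 Gy. All 8 shHMGB1 libraries lay above all 8 shCTRL libraries (16.2 ± 5.53 against 5.73 ± 3.11 CPM). Of 9343 fixed stretches of 50 bases with at least 20 ends anywhere in the genome, 0.0321% separated the lines in this way. Stretches with near 20 ends can hardly separate 8 libraries from 8. The share therefore does not say how rare such a separation is among places with 140 ends, of which 110 here came from shHMGB1. The 140 ends sat at only 6 positions, where the densest stretch of Il1rl1 had 41 positions, and without them the gap held 16.7 ± 6.03 CPM in shCTRL and 15.8 ± 5.37 in shHMGB1. This place was picked for its density after its values were seen, so the difference has no test.

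Along Il1rl1 the ends were gathered in the middle of the gene. From the distal start to the proximal start, 10057 bp and 28.1% of the gene, there were 49 ends (5.00% of 980), fewer per base than the rest of the gene in 16 of 16 libraries. From the proximal start (Il1rl1-202, 40439627) to the end of the short transcript (Il1rl1-203, 40448148), 8522 bp and 23.8% of the gene, there were 659 ends, 67.2% of all. This stretch, the short-form stretch, holds the exons common to the soluble and the membrane form and the soluble form's own last exon. It was denser than the rest of the gene in 16 of 16 libraries, by 6.58 times over all of them. Its share of the ends ranged from 26.0% to 86.1% of a library's ends in Il1rl1. The remaining 17267 bp, past the end of the short transcript and here called the long-form stretch, held 272 ends (27.8%) on 48.2% of the length. Within 1 kb of the 5 annotated starts there were, in order along the gene, 7 ends at Il1rl1-205, 3 at the next start, 29 at Il1rl1-202, 42 at Il1rl1-203 and 49 at Il1rl1-201. The windows of the last 3 overlap and share ends.

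**Figure D3:**
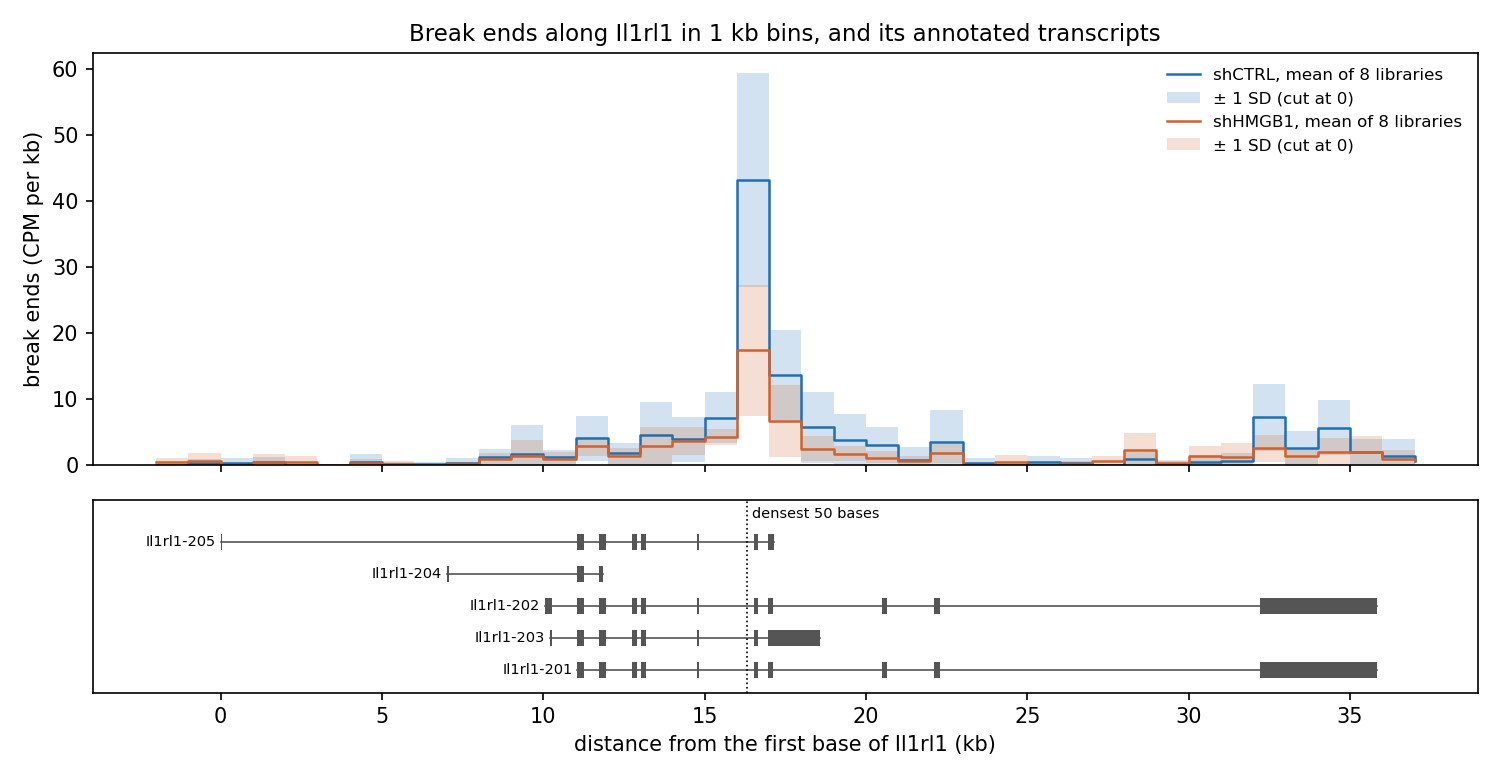
Break ends along Il1rl1 in 1 kb bins (CPM per kb, y axis; mean of 8 libraries per line, shading ± 1 SD) against distance from the first base of the gene (kb, x axis), with its 5 annotated transcripts below (boxes are exons) and a dotted line at the densest 50 bases. Both lines peak in the bin from 16 to 17 kb, at 43.3 CPM in shCTRL and 17.4 in shHMGB1, just before the last exon of the short transcript Il1rl1-203.

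The highest point of this profile is narrow. The densest 50 bases (40445887 to 40445936) lie in an intron of 1684 bp, 150 bases before the next exon, and held 216 of the 980 ends, 22.0% of the ends on 0.139% of the length. All 16 libraries had ends there, from 3 to 29. They were spread over 41 positions, with 41 ends at position 40445909, from 14 libraries, and 31 ends at position 40445924, from 13 libraries. These 50 bases held 29.3 ± 12.8 CPM in shCTRL and 12.4 ± 7.23 in shHMGB1, or 24.4% and 19.1% of the lines' ends in the gene. The rest of the gene held 92.2 CPM in shCTRL and 52.7 in shHMGB1, lower in shHMGB1 in 16 of 16 same-dose pairs, so the difference between lines was also present outside this place.

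Other parts of Il1rl1 followed the same direction. The short-form stretch, without its densest 50 bases, held 56.1 ± 16.4 CPM in shCTRL and 29.9 ± 13.9 in shHMGB1. The long-form stretch held 31.5 ± 8.24 and 19.0 ± 10.7 CPM. In the long-form stretch shHMGB1 was lower in 12 of 16 same-dose pairs, and at 10 Gy the 2 replicates held 17.5 and 28.4 CPM in shCTRL and 21.8 and 35.1 in shHMGB1, the reverse of the other doses. The stretch before the proximal start had too few ends to compare (4.58 ± 5.10 and 3.79 ± 3.03 CPM).

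**Figure D4:**
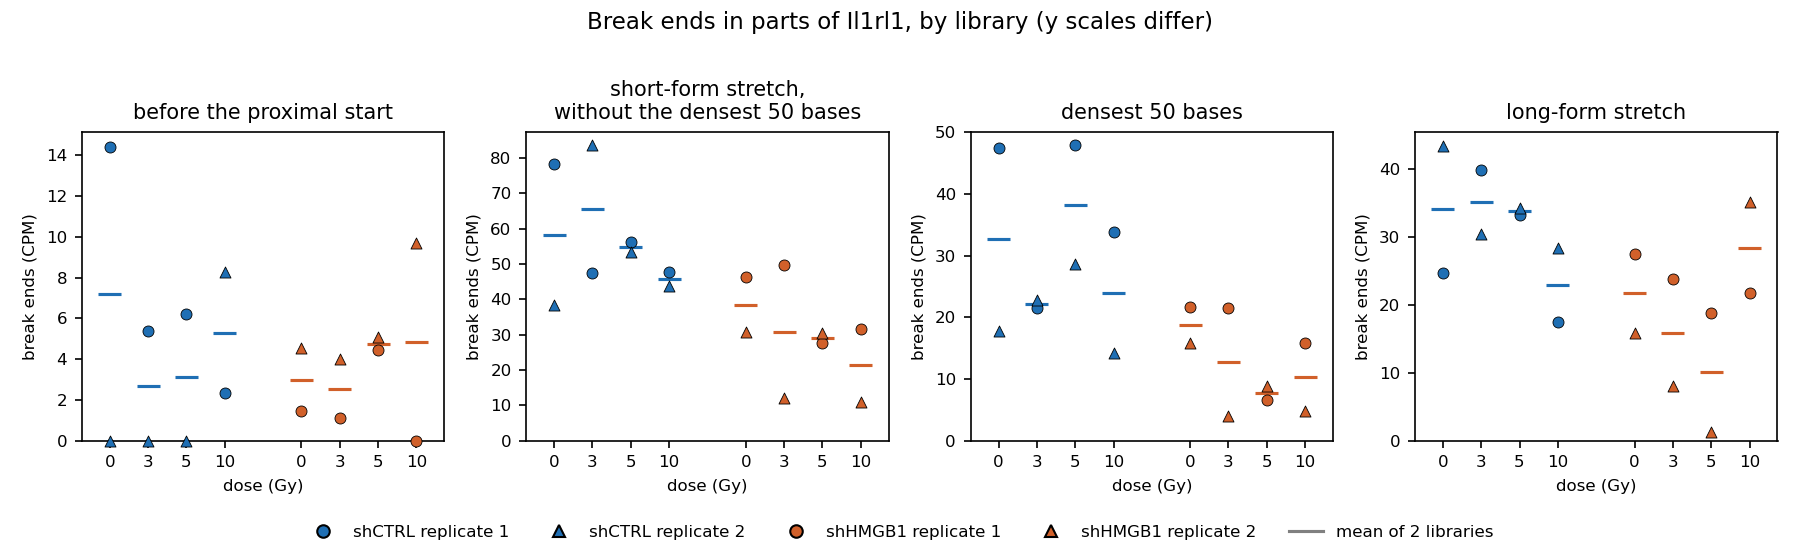
Break ends (CPM, y axes that differ in scale) by dose (x axis, Gy) in 4 parts of Il1rl1 that together make up the gene, 1 point per library, shCTRL at the left and shHMGB1 at the right of each panel, with bars at the mean of 2 libraries. Before the proximal start the values lie between 0 and 14.4 CPM in both lines, and in the other 3 parts most shHMGB1 libraries lie below the shCTRL libraries of the same dose.

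Exons of Il1rl1 held more ends per base than its introns. Exons make up 19.2% of the gene and held 353 ends, 36.0% of the total, at 5.11 ± 2.81 CPM per kb against 2.00 ± 0.707 in introns (SD, n = 16). The log2 ratio of exon to intron density had a mean of 1.15 ± 0.71 (SD, n = 16), was above 0 in 14 of 16 libraries, and differed from 0 by a two-sided permutation test that flips the sign of each library (p = 0.00012). The densest 50 bases lie in an intron and were picked from these same libraries, so leaving them out raises the ratio by that choice. The mean was then 1.75 ± 0.88, above 0 in 15 of 16 libraries, which is no added support. Over all libraries together the exon to intron ratio was 2.36, where the median of tested genes was 1.45 and 79.8% of genes were lower. A surplus of ends in exons is therefore seen in most genes of these libraries. The other members had ratios of 2.07 in Il1r1, 1.65 in Il18r1, 1.27 in Il1rl2, 1.25 in Il18rap and 1.02 in Il1r2, the last from 5 exon ends.

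The last exon of the short transcript (1619 bp), which ends the soluble receptor, held 146 ends, the most of any exon of Il1rl1, at 9.01 CPM per kb. The last exon of the long transcript (3650 bp), which holds the end of the coding sequence and the 3′ untranslated region, held 125 ends, or 3.31 CPM per kb. The 2 annotated exons before the proximal start, of 61 and 58 bp, held no end in any library. Between lines, exons held 48.2 ± 16.05 CPM in shCTRL and 22.3 ± 12.8 in shHMGB1, and introns 73.2 ± 15.9 and 42.9 ± 11.04. In introns the log2 difference between lines was -0.78 among replicates numbered 1 and -0.80 among those numbered 2, while in exons it was -0.52 and -2.03. The value of -2.03 rests in part on few exon ends. At 3 Gy, replicate 2 held 8 in shCTRL and 3 in shHMGB1, and at 5 Gy it held 9 in shHMGB1.

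Irradiation was compared as all 12 irradiated libraries against the 4 at 0 Gy, with the lines kept apart in the fit. None of the 6 members changed in its scaled level by edgeR's quasi-likelihood test (adjusted p from 0.601 to 0.805). Such a level is relative to the other genes of a library. Whether irradiation changed the number of breaks over the whole genome, these genes included, was not measured. The background is as low, since 3 of 12848 genes were called, 0.0233%. Il1rl1 held 66.9, 96.9, 99.5 and 165 CPM in the 4 unirradiated libraries and 27.97, 95.3 and 144 (lowest, median, highest) in the 12 irradiated ones, and these ranges overlap. The irradiated and unirradiated libraries overlapped in all 6 members, and were separate in 0.125% of tested genes. Its fitted log2 change was -0.29 ± 0.19 (SE, 95% interval -0.66 to 0.09). The changes at 3, 5 and 10 Gy were -0.17, -0.31 and -0.39, with adjusted p of 0.921, 0.916 and 0.969. The genes called at these doses were 0.00778%, 0.00778% and 0.0156% of those tested.

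Il1r1 and Il18rap gave values of the same size, -0.26 ± 0.18 and -0.30 ± 0.23. Il1rl2 and Il18r1 gave positive values, 0.62 ± 0.37 and 0.60 ± 0.45, from 13.0 ± 4.65 to 19.2 ± 5.99 CPM and from 8.80 ± 5.02 to 13.4 ± 5.34 CPM (SD, n = 4 unirradiated and 12 irradiated). Il1r2 gave the value farthest from 0, -1.10 ± 0.43, with an unadjusted p of 0.0128 and an adjusted p of 0.601 by edgeR. Its 4 unirradiated libraries held 8.25, 13.0, 25.5 and 27.2 CPM, and its 12 irradiated libraries 0, 9.78 and 38.0 (lowest, median, highest), so the highest value of all came from an irradiated library, shCTRL at 3 Gy, replicate 2, with 5 ends. At 5 Gy the 2 shCTRL libraries held 4.16 and 0 CPM and the 2 shHMGB1 libraries 7.75 and 6.36, and the fitted change was -2.16 ± 0.63 with an adjusted p of 0.628. The library at 0 allows up to 5.71 CPM, the value of 3 ends in it, as a one-sided limit for counting error only, and the exact two-sided 95% interval reaches 7.03 CPM.

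The share of all ends that fell in the cluster was 352 ± 51.6 CPM at 0 Gy (n = 4) and 307 ± 76.2 after irradiation (n = 12). The log2 change of -0.23 did not pass an exact two-sided permutation test within lines (p = 0.0893, adjusted over 8 regions 0.219, where 784 arrangements allow a smallest p of 0.00128). The 6 genes and the sequence between them each gave an adjusted exact p of 0.219. The 4 stretches of Il1rl1 tested in the same way, the one before the proximal start, the short-form one, the long-form one and the densest 50 bases, gave adjusted exact p values from 0.592 to 0.904. Their log2 changes were -0.10, -0.41, -0.40 and -0.60.

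No member passed the test for a different effect of irradiation in the 2 lines. For Il1rl1 the difference in log2 change, shHMGB1 minus shCTRL, was -0.14 ± 0.38 (SE, 95% interval -0.89 to 0.61, adjusted p = 0.994 by edgeR). For Il18rap it was -0.51 ± 0.46 and for Il1rl2 0.55 ± 0.74, with adjusted p of 0.986 and 0.989. No gene of the genome was called for this difference (0%), with 674 genes at an unadjusted p under 0.05. The interval for Il1rl1 reaches past -0.86, the size of its difference between lines, so a difference of that size in the response is not told apart from none.

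Other genes of the pathway were read from a list of ligands, other receptors and signalling genes. Of its 41 genes, 39 were in the annotation and 24 had enough ends to be tested, and none was called in either direction for irradiation or for the difference between lines in it. Il33, the ligand of ST2, held 141 ends in all and was the 1 tested ligand, at 9.44 ± 2.33 CPM at 0 Gy and 12.7 ± 5.16 after irradiation (log2 0.45 ± 0.43, adjusted p = 0.857 by edgeR). The most ends were in Il1rapl1 and Il1rapl2, long receptor-like genes of the same family on another chromosome, with 3998 and 2909 ends, and in Mapk14, the p38α kinase, with 744. Their log2 changes with irradiation were -0.18 ± 0.17, 0.01 ± 0.17 and -0.16 ± 0.20, and their fitted differences between lines 0.15 ± 0.14, 0.21 ± 0.14 and -0.16 ± 0.17. The median log2 change with irradiation was -0.18 over the 20 signalling genes tested and -0.01 over all tested genes. Of these 20 genes, 11 had a change below 0, near the share of 51.2% among all tested genes. Of 13 blood cell markers listed because such cells carry these receptors, 4 were tested and none was called for irradiation.

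Among 3576 genes with a mean of at least 20 ends per library, those whose levels followed Il1rl1 most closely over the 16 libraries were Lars2 (Pearson's r of log2 CPM 0.90), Hnrnpu (0.90), Thbs2 (0.89), Vegfa (0.89) and Cacna1a (0.88). All of them share the difference between lines with Il1rl1. Thbs2, for example, held 287 ± 49.1 CPM in shCTRL and 169 ± 53.3 in shHMGB1. With the mean of each of the 8 groups taken out, 4 of the closest 5 were Vegfa (0.93), Pdia5 (0.93), Col16a1 (0.92) and Spsb1 (0.92), and Vegfa is in both sets. These values describe 16 libraries of unequal depth, in which every gene of a library shares its depth and replicate number, and they carry no p. With group means taken out, the 2 libraries of a group mirror each other, so each value rests on 8 differences. The closest of 3576 genes were also picked for their high values. Among the members, Il1r1 followed Il1rl1 (0.79, and 0.55 without group means), while Il18rap did so only across groups (0.44, and -0.49 without group means). Il1r2, Il1rl2 and Il18r1 had values between -0.18 and 0.13 on either measure, and their few ends limit what such values can show.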

How the data were processed

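The authors deposited, for each of the 16 libraries, the positions of break ends and a count of ends per interval, with no header and no strand. The counts are raw, and on every line the count equals the number of positions listed. Per the submitters' processing notes the build was mm10 and the tools included Trimmomatic 0.32, BWA 0.7.5-r404, UMI-tools, SAMtools and bedtools, with order and settings not given in the sources used here. How duplicate reads of 1 end were merged and which repeats could be mapped both bear on narrow peaks.

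Ends were counted over gene bodies of GENCODE M21 (21938 protein-coding and 10155 long noncoding genes), and 0.628% to 1.06% of a library's ends lay off the main chromosomes and were left out. Genes were tested on the counts with edgeR 4.0.16 (TMM scaling, its filter on low counts, quasi-likelihood test, 1 mean for each of 8 groups, Benjamini-Hochberg adjusted p threshold 0.05) in R 4.3.3, after a check on simulated counts. All 6 members passed the filter. Single regions were tested by exact permutation within lines on log2 CPM with 0.5 ends added, and exons against introns with 100000 sign flips. Ratios per library were also computed for the other 5 members and dropped after their values were seen, since the added 0.5 set them where a library had no exon end. Exact 95% intervals and the limit of 3 ends cover counting error only. Alternatives were DESeq2 1.42.0, other scaling, no filter, distinct positions, at most 3 ends per position, exon or intron bases only, a replicate block and leaving out each library.

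The members and gene lists were chosen with earlier results of these data known. Named genes are the 6 members, annotated genes overlapping the interval and the 2 nearest protein-coding genes on each side, the 3 pathway genes with the most ends, and the 5 genes most like Il1rl1 by each measure, of which 1 is not reported here. In the pathway list 2 symbols were not matched, and Il36a, Il36b and Il36g were matched by older symbols.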

Additional observations from a re-analysis of the deposited data

Results flagged for a closer look

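In the 8 shHMGB1 libraries, Il1r2 had 1 value that stood far above the other 7, 27.2 CPM at 0 Gy, replicate 2, from 24 ends, where the others held 6.36 to 13.0 CPM. In the same line Il1r1 had 1 such value, 94.0 CPM at 0 Gy, replicate 1, where the others held 49.3 to 68.1 CPM. Chance marks about 1 in 20 groups in this way, and both values come from unirradiated libraries and so enter the comparison with irradiated ones.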

How the results depend on the processing

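No member was called for irradiation, or for the difference between lines in it, under any alternative run, and the fitted difference between lines in Il1rl1 kept its sign in all 27, from -1.14 to -0.70. The counts of genes called moved more. For irradiation 3 genes were called, 0 by DESeq2's Wald test, 1 with at most 3 ends per position, 19 with a replicate block within each line, and 1 to 20 when 1 library was left out (20 without shHMGB1 at 3 Gy, replicate 1). Between lines 28 were called, 67 over distinct positions, 136 with a replicate block within each line, and 13 (without shCTRL at 5 Gy, replicate 2) to 141 (without shHMGB1 at 3 Gy, replicate 1) when 1 library was left out. For the difference between lines in the response, 0 were called, and 0 to 1 when 1 library was left out. Leaving out 1 library leaves a group with a lone library, which is assumed to vary like the others, and changes which genes pass the filter. For libraries with the same replicate number, deviations had correlations of -0.036 to 0.025 between lines and 0.020 to 0.072 within them. All 12 values within lines were above 0. Counting error also lowers such correlations, so they cannot settle whether the replicate numbers pair the libraries. With the number as a replicate block, 4, 37 and 0 genes were called in the 3 comparisons, and the mean log2 exon to intron ratio of Il1rl1 was still 1.15, with an exact p of 0.125, the smallest that 4 group values allow. The block within each line was chosen after seeing the data, as was leaving out the densest 50 bases of Il1rl1 or of the gap before it. Some values that passed no test changed sign. For exon bases only, the irradiation change of Il18rap was 0.58, and the difference between lines in the response of Il1rl1 was 0.027. With 1 library left out, the difference between lines in the response ran from -0.77 to 1.302 for Il1r2, -0.61 to 0.13 for Il1r1, -0.69 to 0.24 for Il1rl1 and -0.65 to 1.01 for Il18r1. In the same way the change at 3 Gy ran from -0.74 to 0.11 for Il1rl1 and -1.06 to 0.14 for Il1r2, and the change over all irradiated libraries in the stretch of Il1rl1 before the proximal start, with 49 ends, from -0.997 to 0.80. The cause was not tested. Depth limits the members with few ends most.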

Other observations

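In the shCTRL line the exons of Il1rl1 held a lower share of ends at 10 Gy than at any other dose. The values were 18.6 and 31.9 CPM against 45.9 to 66.0 CPM in the other 6 libraries. The introns of the gene did not show this, with 82.7 and 62.7 CPM at 10 Gy and 53.6 to 99.0 CPM in the others. In shHMGB1 the exons held 22.8 and 15.7 CPM at 10 Gy, within the range of 4.00 to 41.9 CPM of the other 6. The counts are low, with 16 exon ends in shCTRL at 10 Gy, replicate 1, and 8 in shCTRL at 3 Gy, replicate 2. This was noticed after the values were seen and was not tested, and the share of genes with such a pattern is not given here.

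Il1rl1 ends at the same position were few outside the narrow peak. Counted once per library and position, 715 of 764 ends remained outside the densest 50 bases and 128 of 216 inside them. The whole gene kept 843 of its 980 ends (86.0%), and the other members kept 82.1% to 90.5%.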
